A study of Mus musculus with 34 samples.

Results

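Degs1-KO clone2 was 1 of 2 organoid lines made by CRISPR knockout of Degs1, and 9 of the 34 libraries of the series came from it. Its replicates 7 to 9 (n = 3) were set against its replicates 1 to 6 (n = 6), and all 11514 genes that passed a low-count filter were used, of 54354 in the table. Both sets carry the same labels: mouse colon tumour organoids (tumour cells cultured as small self-organised bodies) of AKP genotype and epithelial type, with Degs1-KO as the treatment and clone2 as the line. The labels name no date, passage, treatment or sequencing run that separates them, and they do not say whether replicates were separate cultures. The reference group, Scrambled (n = 3), has the same tissue, cell type and genotype and the treatment Scrambled, and Degs1-KO clone1 has 9 libraries under the same numbers. Each clone and the Scrambled control is 1 line, so n counts libraries. The sets were chosen by the measured expression of these libraries, since their profiles had been seen to differ at replicate 7. The difference between both sets in gene expression is therefore given as a description without a test, and expression was tested against Scrambled alone. The genes named for their fold were chosen on the same clone2 libraries, so their tests against Scrambled are not independent of that choice. All p-values measure the spread between libraries, which may be technical.

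Degs1 encodes the desaturase that puts the double bond into dihydroceramide to make ceramide, a membrane lipid with signalling roles. A clone is a line grown from edited cells of 1 origin, and its libraries share the edit. The genes below belong to several systems of the gut epithelium and its tumours: interferon-induced membrane proteins, secreted protease inhibitors, cornified envelope and hair-type keratins, the revival or fetal-like program of repairing epithelium, and Wnt and BMP signalling.

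Levels are TMM-scaled CPM, the counts of a gene relative to the library total, and folds are log2 differences with the standard error of a fit of all 21 knockout-experiment libraries. Degs1 itself had 2.80, 2.64 and 1.92 CPM in replicates 7 to 9 and between 0.214 and 2.10 in replicates 1 to 6, with a median of 1.45. The sets overlapped, and all 9 libraries lay below Scrambled, at 7.63 ± 2.52 CPM (SD, n = 3). Against Scrambled, Degs1 was lower by a log2 value of -1.63 ± 0.53 in replicates 7 to 9 (edgeR adjusted p = 0.0168) and -2.53 ± 0.46 in replicates 1 to 6 (adjusted p = 2.52e-05). The first call was lost without Scrambled replicate 3 (-1.39, adjusted p = 0.0913) or clone2 replicate 9 (-1.47, adjusted p = 0.0736).

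Replicates 1 to 6 were not of one kind. Across genes, the Pearson r of log2 CPM was 0.969 to 0.973 among replicates 7 to 9, 0.969 to 0.973 among replicates 3 to 6, and 0.964 between replicates 1 and 2. Between replicates 3 to 6 and 7 to 9 it was 0.959 to 0.964, which is above the 0.947 to 0.954 between replicates 3 to 6 and replicates 1 and 2. These correlations describe genes of shared libraries, and genes are not independent replicates. Total counts were 4800270 to 6597099 in replicates 7 to 9 and 3824998 to 6528997 in replicates 1 to 6, and the log2 difference of 0.11 did not pass a two-sided exact permutation test (p = 0.595, where the smallest possible p is 0.0238). The 10 defining epithelial markers summed to between 2744 and 2914 CPM of the unscaled library total in replicates 7 to 9, and to between 3065 and 3367 in replicates 1 to 6, so the sets did not overlap. Of the 10, 3 were lower without overlap (Lgals4, Krt8 and Cdh17), 1 was higher (Cdh1) and 6 overlapped, beside 5.99% lower and 5.2% higher over all genes. The median fold of the 10 was -0.14, and Lgals4 differed most in level, from a mean of 1062 to 689.7 CPM. All 12 immune markers were at 0 in the 3 libraries of replicates 7 to 9, and 10 of 12 in the 6 libraries of replicates 1 to 6. Their sum in replicates 1 to 6 was 0 to 1.57 CPM, and a marker is less likely to be at 0 throughout 6 libraries than 3. Fibroblast markers reached at most 0.856 and endothelial and blood markers at most 2.57 CPM in any clone2 library, and 9 of 11 and 7 of 10 of them were at 0 in replicates 7 to 9. In these bulk libraries fewer cells of a type and less RNA per cell cannot be told apart. The part of the lower sum of epithelial markers in the results was not tested.

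**Figure D1:**
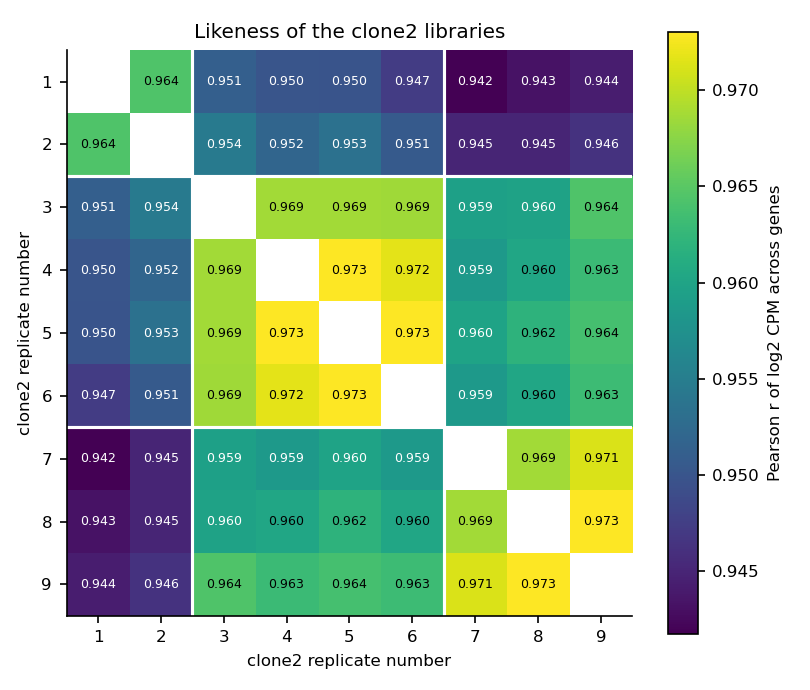
Pearson r of log2 CPM across 11514 genes for every pair of the 9 clone2 libraries, with white lines after replicates 2 and 6. Replicates 7 to 9 are more alike among themselves (0.969 to 0.973) than with any library of replicates 1 to 6, and replicates 1 and 2 stand apart from replicates 3 to 6 (0.947 to 0.954).

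The ranking of folds left out symbols of the forms Gm plus digits, ending in Rik, or ending in -ps with or without digits. Among the other genes without overlap whose log2 CPM averaged 3 or more, Ifitm3 had the highest fold. It belongs to the interferon-induced transmembrane proteins that block the fusion of viruses with cell membranes. Ifitm1, Ifitm2 and Ifitm3 lie beside each other on chromosome 7 (mm10), Ifitm2 (ENSMUSG00000060591) at 140954837 to 140955987, Ifitm1 (ENSMUSG00000025491) at 140967221 to 140969825 and Ifitm3 (ENSMUSG00000025492) at 141009586 to 141010770. Because their sequences are alike, reads may be split among them wrongly, and Ifitm1 and Ifitm2 were singled out after their values were seen. For each gene the 120 bases before the most upstream exon that starts near its RefSeq start are printed because all 3 genes were higher together, with matches to GAAANNGAAA (either strand), the core of the interferon-stimulated response element, in capitals. The sequences are from RefSeq on GRCm38.p6, 5′ to 3′ on the strand of the gene, with exons from GENCODE M21. The Ifitm1 window lies inside the gene span above, in the first intron of a longer annotated transcript.
Ifitm1, chr7:140967908-140968027, plus strand: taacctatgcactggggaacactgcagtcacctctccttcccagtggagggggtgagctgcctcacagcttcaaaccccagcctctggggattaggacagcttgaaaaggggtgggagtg
Ifitm2, chr7:140955988-140956107, minus strand: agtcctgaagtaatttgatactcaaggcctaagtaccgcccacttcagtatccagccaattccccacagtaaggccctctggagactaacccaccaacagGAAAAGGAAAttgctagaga
Ifitm3, chr7:141010771-141010890, minus strand: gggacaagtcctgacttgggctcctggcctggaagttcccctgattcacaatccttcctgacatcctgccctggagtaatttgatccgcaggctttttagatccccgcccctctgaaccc
Ifitm3, chr7:141010716-141010742, minus strand: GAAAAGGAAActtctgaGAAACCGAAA
The last line is the short stretch just inside the first exon of Ifitm3 that holds its 2 matches, 3 and 20 bases after the RefSeq start. Ifitm2 has 1 match, 46 bases before its RefSeq start, and Ifitm1 has 0 in its window of 250 bases before and 50 after the start. The motif occurs in 3.44% of all 32851 promoter windows of that length. Among the 24 genes with the largest differences described below it occurs in 2 of the 20 that have a window, Ifitm3 and Mecom. These 20 genes have 29 windows, so the count of genes is not the same measure as the share of windows. A match is a sequence description and was not linked to binding.

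Ifitm3 stood at 341, 335 and 327 CPM in replicates 7 to 9. In replicates 1 to 6 it had a lowest value of 54.6, a median of 62.6 and a highest value of 71.6 CPM. The sets were far apart (log2 fold 2.41 ± 0.10), and replicates 7 to 9 lay at the level of Scrambled, 301 ± 29.4 CPM (n = 3). Against Scrambled, Ifitm3 fell by 2.26 ± 0.10 on the log2 scale in replicates 1 to 6 (edgeR adjusted p = 1.59e-21), while replicates 7 to 9 had a value of 0.15 ± 0.12 that did not pass (adjusted p = 0.386). Ifitm1 had 42.1, 62.1 and 51.8 CPM in replicates 7 to 9 and 14.9 to 22.1 CPM in replicates 1 to 6, with a median of 16.7 (fold 1.58 ± 0.14). Both sets were below the Scrambled mean of 101 ± 4.26 CPM, by -0.95 ± 0.15 (adjusted p = 4.01e-06) and -2.53 ± 0.14 (adjusted p = 2.42e-19). Ifitm2, the most abundant of the family here, had 1798, 1892 and 1639 CPM in replicates 7 to 9 and 1162 to 1339 CPM in replicates 1 to 6 (fold 0.52 ± 0.08). It rose against Scrambled by 0.78 ± 0.10 in replicates 7 to 9 (adjusted p = 2.46e-08). The value in replicates 1 to 6 was 0.26 ± 0.09 (adjusted p = 0.0137), a call lost without Scrambled replicate 1 or 2 (0.26 and 0.20, adjusted p = 0.0544 and 0.124). In all 3 family members the lowest of replicates 7 to 9 lay above the highest of replicates 1 to 6, and the other 4 Ifitm genes in the table did not pass the low-count filter. Of 15 tested genes of the interferon response and antigen presentation, a list without the Ifitm genes described here, 0 were higher without overlap, and 1, the class I light chain B2m, was lower (-0.73 ± 0.13). Of all genes tested, 5.2% were higher and 5.99% lower without overlap. The list median was 0.10, beside -0.01 over all genes tested.

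Over all genes, 222 were higher and 85 lower in replicates 7 to 9 by a log2 fold of at least 1 with no overlap between the 3 and the 6 libraries, which is 1.93% and 0.738% of genes tested. Without the condition on the fold, 599 genes (5.2%) were higher and 690 (5.99%) lower. Genes at the edge of the fold condition are given within the limits on abundance and symbols used to rank Ifitm3. Among the higher, Herc6 (1.01) and Recql4 (1.01) were just inside and Adck5 (0.996) just outside. Among the lower, Arrdc3 (-1.0002) and AA467197 (-1.03) were inside and Amd2 (-0.996) and Abhd11os (-0.956) outside. The 222 genes were mostly of low abundance, with a median log2 CPM of 1.60 beside 2.94 for the 85 and 3.52 for all genes. With replicates 3 to 6 alone as the reference 132 genes were lower in place of 85, and with replicates 1 and 2 alone 706 were higher and 349 lower. Leaving out 1 library relaxes the condition on overlap: 148, 143 and 171 genes were lower without replicate 7, 8 or 9, the genes higher without overlap numbered 911, 939 and 921, and the 9 leave-outs gave 234 to 324 higher genes by the full rule. Against Scrambled, 1781 genes were higher (15.5%) and 1783 lower (15.5%) in replicates 7 to 9, and 2030 (17.6%) and 1984 (17.2%) in replicates 1 to 6 (edgeR, adjusted p below 0.05). In either direction these were 3564 genes (31%) and 4014 genes (34.9%). Both comparisons use the same 3 Scrambled libraries. The first has 3 clone2 libraries and the second 6, so their power differs and the counts are not a measure of distance from Scrambled.

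In the ranking that Ifitm3 led, among genes whose log2 CPM averaged 3 or more, Tnni1 and Smpx had the next highest folds. Tnni1, the slow skeletal isoform of troponin I, had 176, 168 and 160 CPM in replicates 7 to 9, and in replicates 1 to 6 a lowest value of 24.6, a median of 29.5 and a highest value of 49.9 (fold 2.40 ± 0.17). Smpx, a small muscle protein of the X chromosome, had 255, 243 and 259 CPM, and 37.3, 44.2 and 64.9 as lowest, median and highest in replicates 1 to 6 (fold 2.40 ± 0.13). Neither gene overlapped between the sets. Scrambled was lower still, at 11.5 ± 2.64 and 7.45 ± 1.33 CPM, and both genes had risen in both sets: Tnni1 by 3.87 ± 0.23 in replicates 7 to 9 (edgeR adjusted p = 1.49e-14) and 1.46 ± 0.21 in replicates 1 to 6 (adjusted p = 1.45e-06), and Smpx by 5.06 ± 0.20 (adjusted p = 3.76e-23) and 2.66 ± 0.19 (adjusted p = 1.42e-15).

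Slpi, Ptn, Sct and Prelp, which encode secreted proteins, were also among the 12 highest. Slpi, the secretory leukocyte peptidase inhibitor of mucosal surfaces, had 79.8, 44.7 and 58.0 CPM in replicates 7 to 9 and 11.3 to 20.2 CPM in replicates 1 to 6 (fold 1.91 ± 0.19). Replicates 7 to 9 were above Scrambled (9.52 ± 1.58 CPM) by 2.67 ± 0.25 (edgeR adjusted p = 9.43e-12). Ptn, the heparin-binding growth factor pleiotrophin, had 89.7, 104 and 92.8 CPM against 8.55 to 28.6 CPM (fold 2.35 ± 0.23), with Scrambled at 9.13 ± 1.121 CPM. Sct, which encodes the hormone secretin, had 24.2, 32.6 and 25.3 CPM against 2.78 to 6.68 CPM (fold 2.35 ± 0.29), and replicates 1 to 6 did not differ detectably from Scrambled (-0.10 ± 0.34, adjusted p = 0.859). Prelp, a leucine-rich proteoglycan of the matrix, had 20.5, 19.6 and 21.15 CPM against 4.01 to 7.81 CPM (fold 1.91 ± 0.33). Mgp, the matrix Gla protein, is added here after its values were seen because of its abundance: it had 1008, 892 and 979 CPM against a lowest value of 180, a median of 304 and a highest value of 349 CPM (fold 1.77 ± 0.20). Scrambled held 67.2 ± 15.2 CPM of Mgp.

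The other 5 of the 12 highest were Gsdma, Krt32, Gmpr, Upk3a and Alms1. Krt32, a hair-type keratin, had 112, 143 and 107 CPM in replicates 7 to 9 and 23.7 to 34.9 CPM in replicates 1 to 6 (fold 2.03 ± 0.15), where Scrambled held 2.33 ± 0.534 CPM. Gsdma, a pore-forming gasdermin of skin, had 41.8, 34.7 and 49.0 CPM against 5.69 to 14.01 CPM (fold 2.19 ± 0.23). Upk3a, a uroplakin of the urothelial surface, had 26.3, 36.03 and 34.8 CPM against 6.20 to 10.5 CPM (fold 1.95 ± 0.20), and in replicates 1 to 6 it stood at the Scrambled level (0.00 ± 0.23, edgeR adjusted p = 0.993). Gmpr, which returns GMP to the adenine nucleotide pool, had a fold of 1.99 ± 0.25, and Alms1, a centrosomal protein, 1.89 ± 0.24. Alms1 may share reads with its pseudogene Alms1-ps2 (2.19 ± 0.26), which was not measured, so neither can be taken alone. In replicates 1 to 6 the call of Gsdma against Scrambled (0.81 ± 0.28, adjusted p = 0.022) was lost without Scrambled replicate 1 or 2 (0.53 and 0.86, adjusted p = 0.199 and 0.0518), and that of Slpi (0.77 ± 0.23, adjusted p = 0.00766) without Scrambled replicate 3 (0.66, adjusted p = 0.0584). With replicates 1 and 2 alone the call of Ptn (1.03 ± 0.29, adjusted p = 0.0059) was lost (0.21, adjusted p = 0.67), as was that of Slpi (0.48, adjusted p = 0.246).

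**Figure D2:**
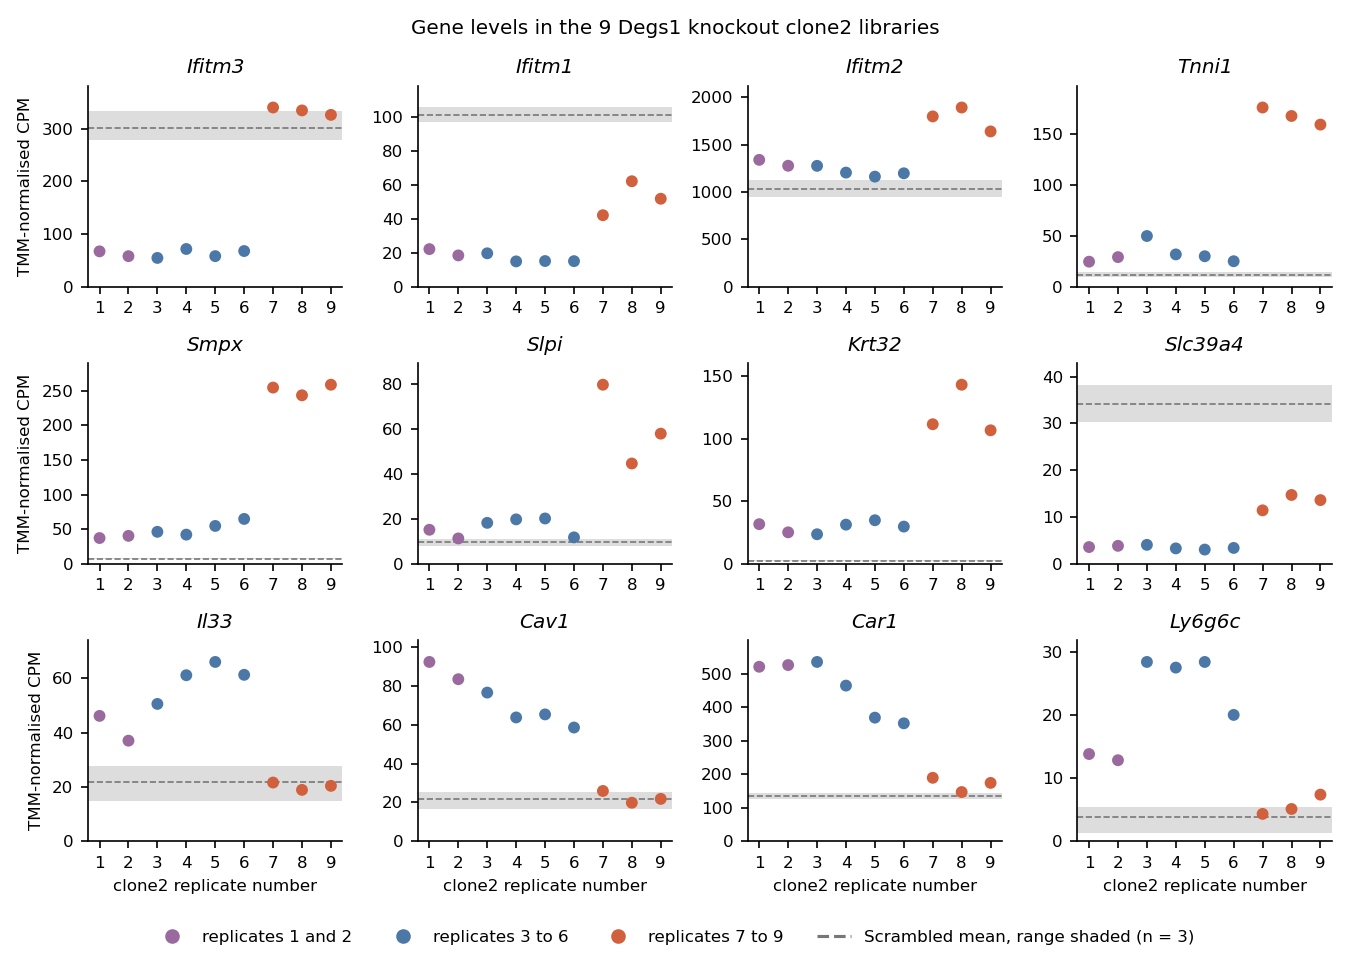
CPM of 12 genes (linear axes from 0) in the 9 clone2 libraries by replicate number, with the Scrambled mean dashed and its range over 3 libraries shaded. Replicates 7 to 9 do not overlap replicates 1 to 6 in any panel. Ifitm3, Il33 and Cav1 of replicates 7 to 9 lie at or near the Scrambled level, while Tnni1, Smpx and Krt32 lie far above it.

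Among the lower genes, Cav1, Il33 and Ly6g6c did not differ detectably from Scrambled in replicates 7 to 9 and were above it in replicates 1 to 6. Cav1, the coat protein of caveolae, had 25.9, 19.8 and 21.8 CPM in replicates 7 to 9, and in replicates 1 to 6 a lowest value of 58.7, a median of 71.1 and a highest value of 92.5 (fold -1.71 ± 0.19). Scrambled held 21.9 ± 4.72 CPM, from which replicates 7 to 9 did not differ detectably (0.03 ± 0.22, edgeR adjusted p = 0.929), while replicates 1 to 6 had risen by 1.74 ± 0.19 (adjusted p = 1.66e-09). Il33, an alarmin cytokine released by damaged epithelium, had 21.6, 18.9 and 20.35 CPM against 37.0 to 66.0 CPM (fold -1.41 ± 0.19). It showed the same order against Scrambled, with -0.11 ± 0.22 (adjusted p = 0.756) and 1.301 ± 0.19 (adjusted p = 6.81e-07). Car1, the carbonic anhydrase of colonocytes, had 189, 147 and 174 CPM against 352 to 535 CPM (fold -1.44 ± 0.13), beside 136 ± 8.73 in Scrambled. Its 3 libraries of replicates 7 to 9 lay above the highest Scrambled library (143 CPM), with a value of 0.33 ± 0.15 that did not pass (adjusted p = 0.0952) but passed without the filter on low counts (adjusted p = 0.0319), with only both sets in the fit (0.00922) or without replicate 8 (0.0483). Ly6g6c, a small surface protein of the Ly6 family, had 4.31, 5.09 and 7.37 CPM against 12.8 to 28.4 CPM (fold -1.95 ± 0.31), with 3.89 ± 2.31 in Scrambled (0.60 ± 0.39, adjusted p = 0.257, and 2.55 ± 0.33, adjusted p = 5.49e-08). That a value did not differ detectably does not show that the levels were equal.

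Ptprr, Gna14, Pla2g4a, Mecom, Dynap and Trbc1 were below Scrambled in replicates 7 to 9 (edgeR, highest adjusted p = 2.01e-05). Ptprr, a phosphatase that acts on MAP kinases, had 9.27, 7.55 and 6.09 CPM against 19.5 to 31.3 CPM (fold -1.68 ± 0.20) and 38.2 ± 5.62 in Scrambled. Gna14, a G protein alpha subunit, had 8.20, 6.22 and 5.93 CPM against 17.1 to 25.5 CPM (fold -1.56 ± 0.22). It fell by 1.36 ± 0.24 against Scrambled in replicates 7 to 9 (edgeR adjusted p = 2.01e-05), and replicates 1 to 6 had 0.20 ± 0.19 (adjusted p = 0.461). Pla2g4a, the cytosolic phospholipase A2 that releases arachidonic acid, had 7.12, 7.73 and 7.21 CPM against 13.6 to 27.3 CPM (fold -1.36 ± 0.22). Mecom, a zinc finger transcription factor, had 6.69, 5.09 and 4.01 CPM against 10.4 to 17.3 CPM (fold -1.36 ± 0.25). Dynap had a fold of -1.52 ± 0.29, and Ly6c2, which has a near-identical neighbour in Ly6c1 (-0.62 ± 0.15), one of -1.40 ± 0.21, and its value against Scrambled did not pass in replicates 7 to 9 (-0.57 ± 0.24, adjusted p = 0.0622). Tdo2, tryptophan dioxygenase, had 4.10, 3.02 and 5.13 CPM against 10.2 to 22.1 CPM, and lay above Scrambled in both sets, where it was nearly undetected (0.361 ± 0.626 CPM). Trbc1, annotated as a T cell receptor constant segment, had 33.6, 27.7 and 29.8 CPM against 64.3 to 83.97 CPM (fold -1.35 ± 0.12), in libraries where the 12 immune markers were at or near 0.

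The revival and fetal-like program, which marks regenerating gut epithelium and which the study's title names, was lower on balance in replicates 7 to 9. Of its 25 tested genes 12 were lower and 1 higher without overlap (all genes: 5.99% and 5.2%), and the list median was -0.42 beside -0.01 over all genes. Il1rn, the interleukin 1 receptor antagonist, had 57.4, 44.1 and 49.7 CPM against 97.5 to 150.1 CPM (fold -1.24 ± 0.12). Anxa1, annexin A1, had 1756, 1567 and 1579 CPM against a lowest value of 2338, a median of 2825 and a highest value of 3352 (fold -0.79 ± 0.10). Anxa1 rose against Scrambled in replicates 1 to 6 by 0.79 ± 0.10 (edgeR adjusted p = 3.55e-08), and replicates 7 to 9 had -0.00 ± 0.11 (adjusted p = 0.996). Msln, mesothelin, had a fold of -0.89 ± 0.15. Clu, the marker of revival stem cells, did not follow: it had 6.90, 3.40 and 0.961 CPM against 0.801 to 5.52 CPM, with overlap (0.36 ± 0.45). Against Scrambled, 3 list members were higher and 12 lower in replicates 7 to 9 (n = 3), and 9 and 8 in replicates 1 to 6 (n = 6). The shares over all genes were 15.5% and 15.5%, and 17.6% and 17.2%. The S100 family of calcium-binding proteins had 4 of 12 genes lower without overlap and 0 higher, with a median of -0.54, and all 12 values were negative (highest -0.31). S100a14 had 1245, 1114 and 1260 CPM against 1636 to 2548 CPM (-0.74 ± 0.12), and S100a16 -0.59 ± 0.10. S100a14 and S100a16 are chromosome 3 genes, and the median over the 582 tested genes there was -0.10.

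Cornified and keratin genes were mixed. Of 22 cornified envelope and squamous genes 4 (18.18%) were lower and 2 (9.09%) higher without overlap, beside 5.99% and 5.2% of all genes (median -0.24), with Krt13, a keratin of stratified mucosa, at -1.29 ± 0.35 and Ivl, the envelope precursor involucrin, at 1.66 ± 0.64. Sprr2a1, a small proline-rich envelope protein with near-identical paralogs, separated replicates 1 and 2 (43.9 and 92.4 CPM) from replicates 3 to 6 (mean 1533 CPM) and 7 to 9 (1150, 1110 and 962 CPM). It is a case in which the difference lay within replicates 1 to 6. Hair-type keratins had 2 of 12 lower and 1 higher (median -0.66): Krt83 was lower, with 43.4, 43.0 and 50.5 CPM against 55.4 to 156 CPM (-1.28 ± 0.29), while Krt32 was the higher one. Keratin paralogs share sequence, so their read assignment is uncertain.

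Of 8 tested metal handling genes 4 were higher and 0 lower without overlap (all genes: 5.2% and 5.99%), and the other 4 overlapped, with a list median of 0.41 and a lowest value of -0.35. The metallothioneins, which bind zinc and copper, were abundant: Mt1 had 9696, 8261 and 8750 CPM against a lowest value of 5849, a median of 6698 and a highest value of 7609 (0.42 ± 0.08), and Mt2 2947, 2660 and 2859 CPM against 1555 to 2104 CPM (0.58 ± 0.09). Fth1, the ferritin heavy chain, had a fold of 0.49 ± 0.13. Slc39a4, the zinc importer of the gut surface, had 11.4, 14.7 and 13.6 CPM against 3.05 to 4.06 CPM (1.91 ± 0.19). It remained below Scrambled (34.2 ± 3.98 CPM), by -1.36 ± 0.18 in replicates 7 to 9 (edgeR adjusted p = 4.90e-08) and -3.27 ± 0.17 in replicates 1 to 6 (adjusted p = 7.37e-20).

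Of 17 Wnt targets and feedback genes 5 (29.4%) were higher and 1 (5.88%) lower without overlap, beside 5.2% and 5.99% of all genes, with a median of 0.35. Apcdd1, a membrane-bound inhibitor of Wnt signalling, had 154, 144 and 144 CPM against 57.7 to 80.1 CPM (1.08 ± 0.19). Myc, the growth-promoting transcription factor, had 47.7, 45.6 and 42.9 CPM, against 8.56 and 11.3 CPM in replicates 1 and 2 and 22.8 to 40.2 CPM in replicates 3 to 6 (0.99 ± 0.27). Wif1, a secreted Wnt inhibitor, was low in every library (0.84 ± 0.32). Lgr5, the Wnt-responsive stem cell receptor, overlapped, with 0.863, 1.51 and 2.08 CPM against 0.400 to 1.72 CPM, far below Scrambled (22.8 ± 3.53 CPM). Notch and BMP genes had 5 of 15 (33.3%) higher and 1 (6.67%) lower (median 0.11). Bmp7, a BMP ligand, had 20.5, 16.6 and 12.8 CPM against 2.57 to 5.41 CPM (2.11 ± 0.34). Id2, a transcriptional inhibitor induced by BMP signals, had 959, 1084 and 1130 CPM against 643 to 818 CPM (0.54 ± 0.08), and Smad6, an inhibitory SMAD, a fold of 0.89 ± 0.44 at low counts.

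Sphingolipid genes lie closest to the edited enzyme. Of 12 tested genes of de novo sphingolipid synthesis 0 were higher or lower without overlap (median -0.07). Of 19 genes of ceramide use and breakdown 3 (15.8%) were higher and 2 (10.5%) lower, beside 5.2% and 5.99% of all genes (median 0.13), among them the ceramide kinase Cerk (0.83 ± 0.24), the neutral sphingomyelinase Smpd3 (0.77 ± 0.38) and the alkaline ceramidase Acer3, with 23.3, 23.2 and 22.8 CPM against 33.2 to 46.4 CPM (-0.73 ± 0.15). Cholesterol synthesis and uptake had 8 of 24 (33.3%) lower and 3 (12.5%) higher (median -0.14). Idi1, the isoprenoid isomerase, had 300.5, 351 and 317 CPM against 432 to 549 CPM (-0.60 ± 0.09), and Sc5d, a desaturase late in the pathway, had a fold of -0.59 ± 0.09.

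Growth and stress lists lay near the level of all genes, of which 5.2% were higher and 5.99% lower without overlap. DNA replication and S phase had 1 of 26 higher and 1 lower (median 0.09), and G2 and mitosis 0 of 24 higher and 2 lower (median -0.15), the cyclin Ccnb1 (-0.56 ± 0.12) and the centromeric histone Cenpa (-0.66 ± 0.16). The integrated stress response had 2 of 24 on either side (median -0.05), with the stress cytokine Gdf15 at 7.98, 10.8 and 7.53 CPM against 2.49 to 4.70 CPM (1.38 ± 0.22) and asparagine synthetase, Asns, at -0.54 ± 0.11. YAP/TAZ-TEAD targets had 1 of 16 on either side (median -0.08), and Yap1 overlapped (-0.34 ± 0.22). Car9, the carbonic anhydrase induced by hypoxia, was below 3.06 CPM in all 9 libraries, with 123 ± 3.64 CPM in Scrambled. The 13 mitochondrially encoded mRNAs, whose reads can also match nuclear copies, had 2 higher and 0 lower (median 0.11), and reads of mitochondrial genes made up 4.36% to 4.82% of replicates 7 to 9 and 3.71% to 4.45% of replicates 1 to 6, which overlap. The part of that share in the results was not tested.

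**Figure D3:**
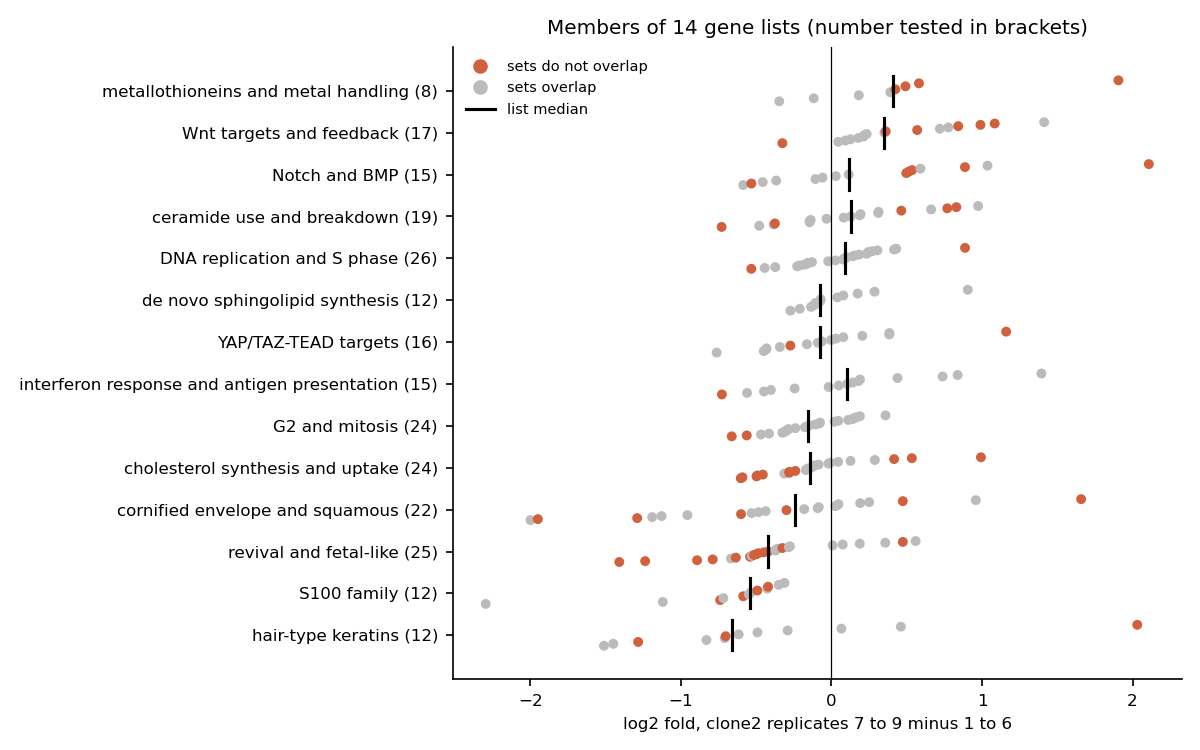
Log2 fold of replicates 7 to 9 against 1 to 6 for the tested members of 14 gene lists, each point a gene, coloured where the libraries of both sets do not overlap, with the list median as a bar. The revival, S100 and hair-type keratin medians are the lowest (-0.42, -0.54 and -0.66), and metal handling and Wnt the highest (0.41 and 0.35).

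Genes of chromosome 15 were higher as a whole. Its 471 tested genes had a median fold of 0.22 between the sets, beside -0.01 over all genes, and 76.2% of them were above 0. By the rule above 25 (5.31%) were higher and 5 (1.06%) lower, beside 1.93% and 0.738% of all genes. The value held along the chromosome: in 4 consecutive stretches holding nearly equal numbers of its genes the median was 0.17, 0.22, 0.26 and 0.21. Measured in each library against the Scrambled mean, the chromosome 15 median was 0.30, 0.29 and 0.27 in replicates 7 to 9 and between -0.02 and 0.08 in replicates 1 to 6, so the sets did not overlap. Chromosome 7 had a smaller shift, with a median fold of 0.11 over 865 genes, stretch medians of 0.07, 0.13, 0.11 and 0.13, and library medians of 0.06 to 0.12 in replicates 7 to 9 and -0.08 to -0.02 in replicates 1 to 6. The chromosome 7 value depended on the setting: it was 0.013 without the filter on low counts and 0.17 against replicates 1 and 2 alone. The other 18 chromosomes had medians from -0.10 to 0.03, and chromosome 3, at the low end, was the 1 other whose libraries did not overlap. Chromosome 18 was high in both sets, at 0.44 and 0.48 against Scrambled. Myc, Slc39a4, Upk3a and Cerk lie on chromosome 15 and the Ifitm genes and Sct on chromosome 7, and each of their folds but that of Ifitm2 was at least 0.83, above the median of its chromosome. Ly6c1, Ly6c2 and Krt83, also on chromosome 15, were lower, as were Acer3 (-0.73) and Lgals4 (-0.62) on chromosome 7. Without the genes of both chromosomes 168 genes were higher and 78 lower, an alternative chosen after the values were seen. Copy number was not measured, and the part of the chromosome-wide values in these genes was not tested.

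**Figure D4:**
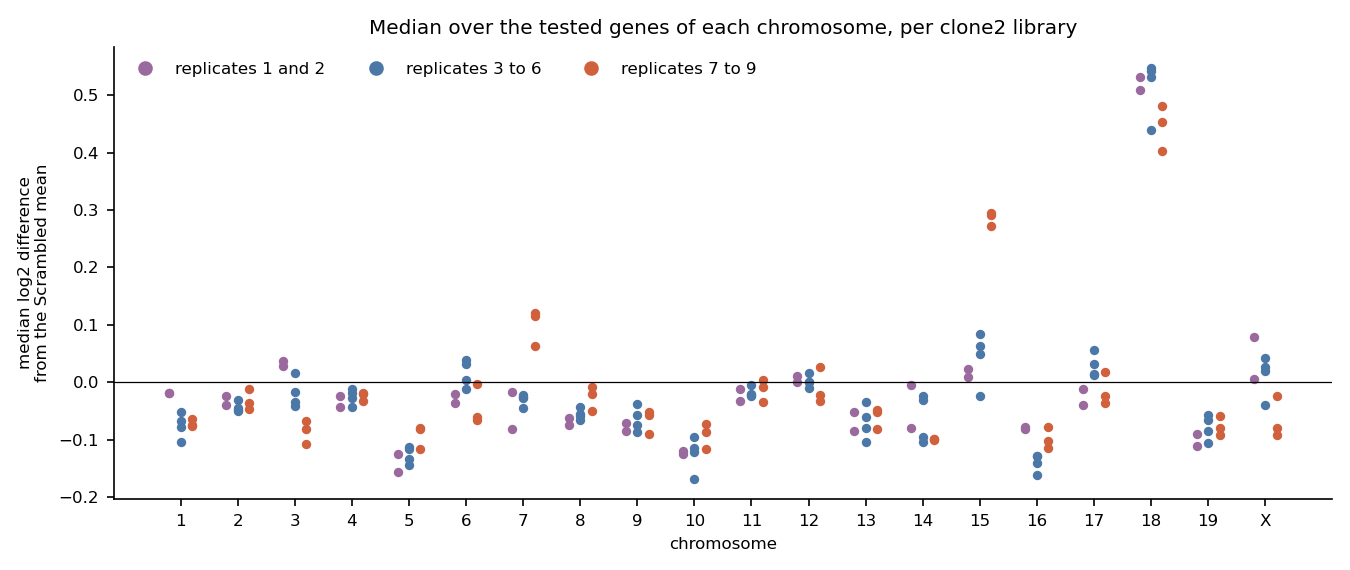
Median log2 difference from the Scrambled mean over the tested genes of each chromosome (x axis), 1 point per clone2 library. On chromosome 15 replicates 7 to 9 lie at 0.27 to 0.30, above replicates 1 to 6 at -0.02 to 0.08, chromosome 7 shows a smaller gap (its median fold of 0.11 was 0.013 without the filter on low counts), and chromosome 18 is high in all 9 libraries.

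The same split of replicate numbers in Degs1-KO clone1 gave mostly other genes. There 73 genes were higher (0.634%) and 148 lower (1.29%) by the same rule. Clone1 replicate 2, in the set of replicates 1 to 6, held only 883253 counts, where the others of that set held 3453643 to 4983908. The part of that shallow library in the clone1 values was not tested. Of the 222 higher genes of clone2, 3 were higher in clone1 too (1.35%, beside 0.634% of all genes). Of the 85 lower genes, 7 were lower in clone1 too (8.24%, beside 1.29% of all genes). These were 4.11% and 4.73% of the clone1 genes, beside 1.93% and 0.738% of all genes called in clone2. In the opposite direction, 21 genes were higher in clone2 and lower in clone1. They were 9.46% of the higher clone2 genes and 14.2% of the lower clone1 genes, beside 1.29% and 1.93% of all genes. Lower in clone2 and higher in clone1 were 0 genes. Of the 12 highest genes of clone2, 10 had a negative value in clone1, and in 5 the clone1 libraries lay the opposite way without overlap: Ifitm3 (-0.92), Tnni1 (-1.21), Smpx (-2.28), Gsdma (-1.02) and Slpi (-1.62). Of the 12 lowest genes 4 were lower without overlap in clone1 too, Cav1 (-0.93), Gna14 (-1.08), Car1 (-1.12) and Il33 (-0.53). Some lists differed as well, as values that were not tested against each other. In clone1, 20 of 26 S phase genes were higher without overlap (median 0.66), against 1 in clone2. Of all genes in clone1, 6.53% were higher and 6.49% lower without overlap. Metal handling, Wnt, and Notch and BMP genes had negative medians in clone1 (-0.45, -0.46 and -0.47). The median of chromosome 15 in clone1 was -0.02. Some other lists went the same way in both clones. The revival list was lower in clone1 for 9 of 25 genes and higher for 3, with a median of -0.20. The S100 family had 4 of 12 genes lower and 0 higher without overlap in clone1 (median -0.16). Cholesterol synthesis and uptake had 6 of 24 lower and 0 higher there (median -0.04).

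**Figure D5:**
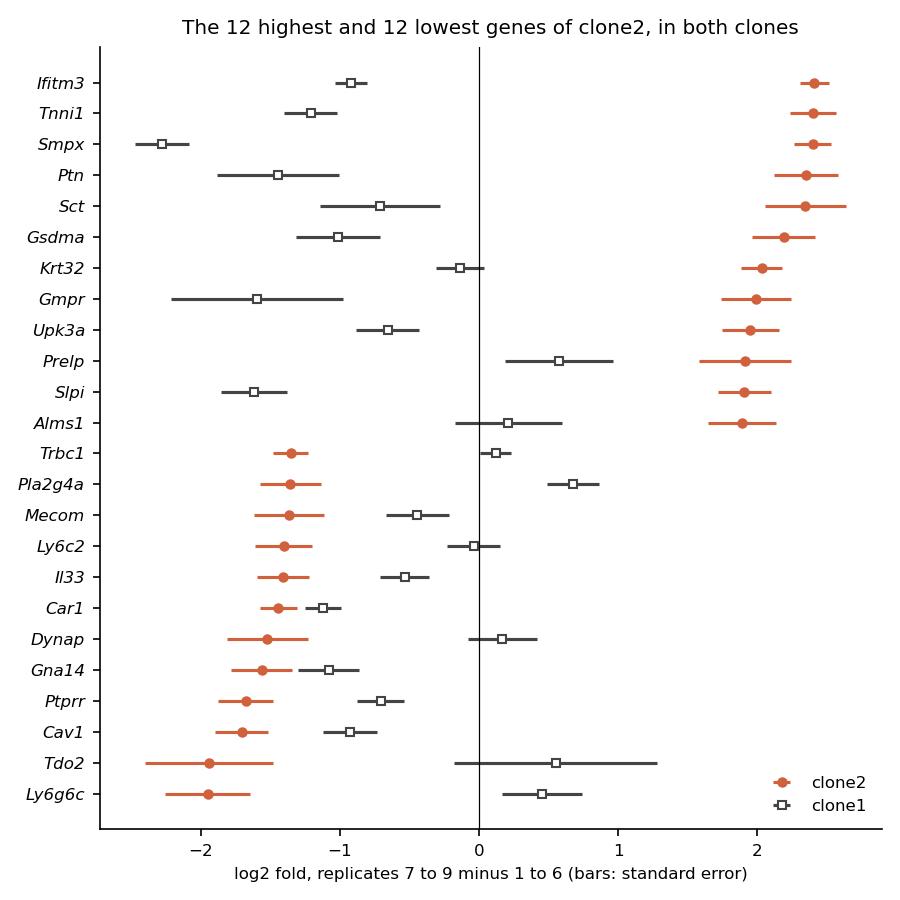
Log2 fold of replicates 7 to 9 against 1 to 6, with its standard error, for the 12 highest and 12 lowest genes of clone2, in clone2 (filled circles, the values that chose the genes) and in clone1 (open squares). Most of the higher genes of clone2 lie below 0 in clone1 (10 of 12), while Cav1, Gna14, Car1 and Il33 are lower in both.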

How the data were processed

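RNA of mouse colon tumour organoids was sequenced after poly(A) selection with a strand-specific kit, per the labels' protocols. The authors deposited estimated counts (expected counts) per gene, all whole numbers in the table, with Salmon 1.3.0 and mm10 named in the submitters' processing notes. Splitting of reads among near-identical genes can move single values. Entries without a gene name held at most 0.0475% of a library and were kept under their gene identifiers. Positions came from GENCODE M21.

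Counts were fitted with edgeR 4.0.16 (R 4.3.3; TMM, filterByExpr with a minimum count of 10, robust quasi-likelihood) over 21 libraries in 5 sets: Scrambled and, for each clone, replicates 1 to 6 and 7 to 9. Adjusted p-values are Benjamini-Hochberg over 11514 genes, with a threshold of 0.05. The standard error is the absolute fold over the square root of F. Genes named are the 12 highest and 12 lowest folds with no overlap and a mean log2 CPM of at least 3, Degs1, Yap1, Lgr5, Clu and Car9, and list members. Others are marked. Symbols of the forms Gm plus digits, ending in Rik, or ending in -ps with or without digits were left out of the 12 highest and 12 lowest. The members and lists were chosen with earlier results of these data known. DESeq2 1.42.0, other filters, folds and left-out libraries were alternatives. Results for 1 gene are not reported here.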

Additional observations from a re-analysis of the deposited data

Results flagged for a closer look

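Tnni1 in clone2 replicate 3 stood at 49.9 CPM, apart from the other libraries of replicates 1 to 6 (24.6 to 31.8 CPM), with a gap of 0.716 of the range where the critical value for 6 libraries is 0.625. It was 1 of 32 groups checked, and chance alone gives about 1 in 20.

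In 6 of 29 named genes checked the libraries of replicates 7 to 9 lay entirely on opposite sides of replicates 1 to 6 in clone1 and clone2. The 12 highest and 12 lowest of them were chosen for no overlap in clone2, so only their clone1 side was free to vary. In clone1, 6.53% of all genes were higher and 6.49% lower without overlap. The difference between the clones was not tested. The log2 fold was -0.92 in clone1 and 2.41 in clone2 for Ifitm3, -1.21 and 2.40 for Tnni1, and -2.28 and 2.40 for Smpx. It was -1.02 and 2.19 for Gsdma and -1.62 and 1.91 for Slpi. Pla2g4a had the reverse order, with 0.68 in clone1 and -1.36 in clone2.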

How the results depend on the processing

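The 222 higher and 85 lower genes depended on the settings. Without a filter on low counts 369 were higher. A log2 fold of at least 0.58 gave 372 and 233, and one of at least 2 gave 60 and 12. Against replicates 3 to 6 alone 132 were lower, with 990 higher and 1291 lower without overlap. Against replicates 1 and 2 alone 706 and 349 were called, with 2484 and 2380 without overlap. Leaving out 1 library gave 234 to 324 higher and 90 to 171 lower genes, and 675 to 939 and 781 to 1024 without overlap. The chromosome 15 median was 0.15 without the filter and 0.19 to 0.23 with 1 library left out. That of chromosome 7 was 0.013 without the filter, 0.17 against replicates 1 and 2 alone and 0.09 to 0.12 with 1 library left out. The log2 difference in total counts ranged from -0.0028 (without replicate 9, reversed) to 0.23. Of 408 folds of the 24 named genes under alternatives 399 moved by less than 1 SD, 9 moved further and 0 reversed. The 399 include the alternatives that changed only the fold condition, where the folds are the same by construction.

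Against Scrambled, leaving out 1 library gave 1465 to 1526 higher and 1472 to 1558 lower genes for replicates 7 to 9, and 1639 to 1694 and 1586 to 1641 for replicates 1 to 6. With replicates 1 and 2 alone 1267 were lower, and B2m (-0.10), Krt7 (-0.053) and P4ha1 (-0.20) reversed without passing. With the replicate number as a block 1272 genes were lower in replicates 1 to 6 in place of 1984, and the calls of Ptn (0.60), Gsdma (0.88) and Slpi (0.63) were lost. The numbers did not pair the libraries (r of deviations -0.040 to 0.082). No paired analysis was possible for replicates 7 to 9, because they share no number with replicates 1 to 6 or Scrambled. The causes of these changes were not tested, and genes of few counts are the least precise.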
